A study of Mus musculus with 2 samples.

Results

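T-lineage cells are found among mouse medullary thymic epithelial cells (mTECs) that were sorted as EPCAM-positive and Ly51-negative, and they numbered 227 of 13307 cells kept by the quality filter. They were chosen by the measured values of 7 T-cell genes, Cd3e, Cd3d, Cd3g, Lck, Thy1, Cd8b1 and Cd4. At least 3 of the 7 had to be detected with a summed level of at least 5 UMIs (unique molecular identifiers, 1 per captured RNA molecule) per 10000. In addition, fewer than 2 of the dendritic cell genes Flt3, Tyrobp and Ccr7 had to be present, and the tuft cell genes Trpm5, Dclk1 and Alox5ap had to sum to under 10 per 10000. The levels of these genes therefore describe how the cells were picked and are not findings.

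The study profiled thymus by 10x Genomics 3' single-cell RNA sequencing in mice with floxed alleles of Ikaros, a zinc finger transcription factor whose gene is Ikzf1. There were 2 libraries. The library with the genotype label Foxn1-Cre(+) Ikaros+/fl, which has a single floxed allele, is called here the +/fl-labelled library. The library with the label Foxn1-Cre(+) Ikarosfl/fl is called the fl/fl-labelled library. Both carry Foxn1-Cre, a recombinase under the promoter of the thymic epithelial regulator Foxn1, so the deletion is directed at epithelial cells and not at T cells. The labels give no treatment and state neither the age, sex or number of mice nor the deleted exons. The names that the submitters gave the matrices state the genotypes the other way round, so every direction below is between libraries as labelled. Xist, which silences an X chromosome in female cells, was at 1222 CPM (UMIs per 1000000 UMIs summed over the cells named) in T-lineage cells of the +/fl-labelled library and had 1 UMI in the fl/fl-labelled one. The Y-linked Ddx3y was at 0 and 97.0 CPM in the same order, so the sex of the mice differed too and cannot be told apart from the labelled genotype. With 1 library per genotype no test was possible, and the intervals given are 95% intervals for counting error only.

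T cells develop in the thymus from progenitors that first rearrange the beta chain of the T-cell receptor, then express both CD4 and CD8 as double positive thymocytes while Rag1 and Rag2 recombine the alpha chain. Double positive cells that receive a signal from self peptides on thymic stroma switch off Rag1, keep only CD4 or CD8 and move to the medulla, where mTECs present tissue antigens to them. Mature single positive cells then raise genes for survival and exit, such as Il7r, Klf2 and S1pr1.

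The T-lineage cells were 88 of 5099 kept cells (1.73%, interval 1.39 to 2.12) in the +/fl-labelled library and 139 of 8208 (1.69%, interval 1.43 to 2) in the fl/fl-labelled library. The shares overlapped within counting error, in a sort meant to hold epithelial cells. T-lineage cells were shallower than the other kept cells of the same library, with medians of 5787 and 4104 UMIs against 11143 and 8597. Their depth ranged from 1140 to 113446 UMIs and from 1080 to 65659 UMIs. The 27 and 33 cells with over 10000 UMIs, 20 and 29 of them with Epcam, held 75.5% and 62.4% of all UMIs of the T-lineage cells, so pooled CPM levels mostly describe these barcodes. Values without them, or as a mean of each cell's own CPM, are given beside the main stage genes below. The libraries shared 25 cell barcodes by sequence, 11 of them kept, and no barcode was a T-lineage cell in both. No working doublet caller was available, since Scrublet's automatic threshold marked 2 and 0 kept cells. Removing instead the highest doublet scores would take 5 and 7 T-lineage cells.

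All 7 choosing genes were detected in 20 T-lineage cells of the +/fl-labelled library and 7 of the fl/fl-labelled library, and exactly 3 were detected in 8 and 38 cells. The 3 cells nearest the lower limit had summed levels of 6.15, 6.46 and 6.52 per 10000 in the +/fl-labelled library and 5.01, 5.25 and 5.44 in the fl/fl-labelled library. Just outside it, 25 and 27 cells had at least 3 of the genes but a lower sum, with highest levels of 4.97, 4.60 and 4.06, and of 4.54, 4.50 and 4.38. The dendritic criterion removed 6 and 11 further cells and the tuft criterion 5 and 2.

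The label was checked against T-cell genes that the choice did not use. The constant regions of the T-cell receptor beta chain, Trbc1 or Trbc2, had at least 1 UMI in 87 of 88 and 125 of 139 T-lineage cells. The other kept cells had such a UMI in 16.5% and 11.3%. With each cell thinned at random to 1000 UMIs, the shares were 89.8% and 80.6% against 1.92% and 1.97%. Fewer than 3 UMIs of Trac, Trbc1 and Trbc2 together were found in 1 and 15 T-lineage cells with Epcam, and in 1 and 3 without. However, 11 cells, 1 in the +/fl-labelled and 10 in the fl/fl-labelled library, had no UMI of any T-cell receptor constant region and go against the label. All 11 carried UMIs of the epithelial genes Epcam and Krt8, of the milk casein gene Csn2, which mTECs express as a tissue antigen, and of the MHC class II chain Cd74, and 1 and 9 carried Aire. UMIs of Cd3d were present in 1 and 9 of them and of Cd3g in 1 and 9, whereas the T-cell signalling gene Lat and the pan-leukocyte gene Ptprc were at 0 in all 11. Their median depths were 53630 and 17398 UMIs. Values without these 11 cells are given beside the results below where they differ.

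Of 26 further T-lineage genes, none used in the choice, 24 were at least 2-fold higher in T-lineage cells than in the other kept cells in both libraries, against 6.57% of 5696 genes with at least 50 UMIs. The receptor and its signalling chain led. Trbc2 was at 2456 CPM (2362 to 2553) and 1384 CPM (1314 to 1456) in T-lineage cells against 29.7 and 18.1 CPM in other cells. Trbc1 was at 1594 CPM (1519 to 1673) and 726 CPM (676 to 779) against 6.21 and 6.62 CPM. Trac, the alpha chain constant region, was at 216 CPM (189 to 246) and 272 CPM (242 to 305) against 3.34 and 8.25 CPM. All 3 receptor genes thus stood far above the level in the surrounding epithelial cells in both libraries. Lat, the adaptor that links the receptor to downstream signalling, was at 424 and 234 CPM against 2.34 and 3.28 CPM. The adhesion receptor Cd2 (105 and 173 CPM) and the costimulatory receptor Cd28 (176 and 134 CPM) were at 3.23 CPM or less in other cells of both libraries. Among transcription factors of T-cell commitment, Bcl11b was at 248 and 165 CPM against 17.0 and 13.9 CPM, Tcf7 at 401 and 205 CPM against 10.4 and 19.1 CPM, and Lef1 at 185 and 194 CPM against 4.19 and 3.84 CPM. Runx1 and the adaptor Fyb did not stand out, with Runx1 at 0.718 and 0.999 times and Fyb at 0.784 and 1.64 times their level in other cells.

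The genes ranked highest against other cells by the smaller of the library ratios included Cd3g, Trbc1, Cd3d, Cd3e, Cd8b1, Ptprcap, Trbc2, Rhoh, Sh2d1a, Lat, Cd8a, Cd2, Rag1, Cd28, Ms4a4b, Skap1, Cd5, Lef1 and Tespa1. Rhoh, a GTPase-like protein of blood cells needed for receptor signalling in thymocytes, was at 312 and 193 CPM in T-lineage cells and 2.69 and 2.42 CPM in others. Sh2d1a, the adaptor SAP of SLAM-family receptors, was at 218 and 91.4 CPM against 1.09 and 0.652 CPM. Of the choosing genes themselves, Cd3g was at 865 and 802 CPM, Cd3d at 670 and 627 CPM, Cd3e at 294 and 202 CPM, Lck at 390 and 181 CPM, Thy1 at 260 and 126 CPM, Cd8b1 at 418 and 208 CPM and Cd4 at 70.2 and 59.7 CPM. Their levels in other cells lay between 1.38 and 8.13 CPM.

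**Figure D1:**
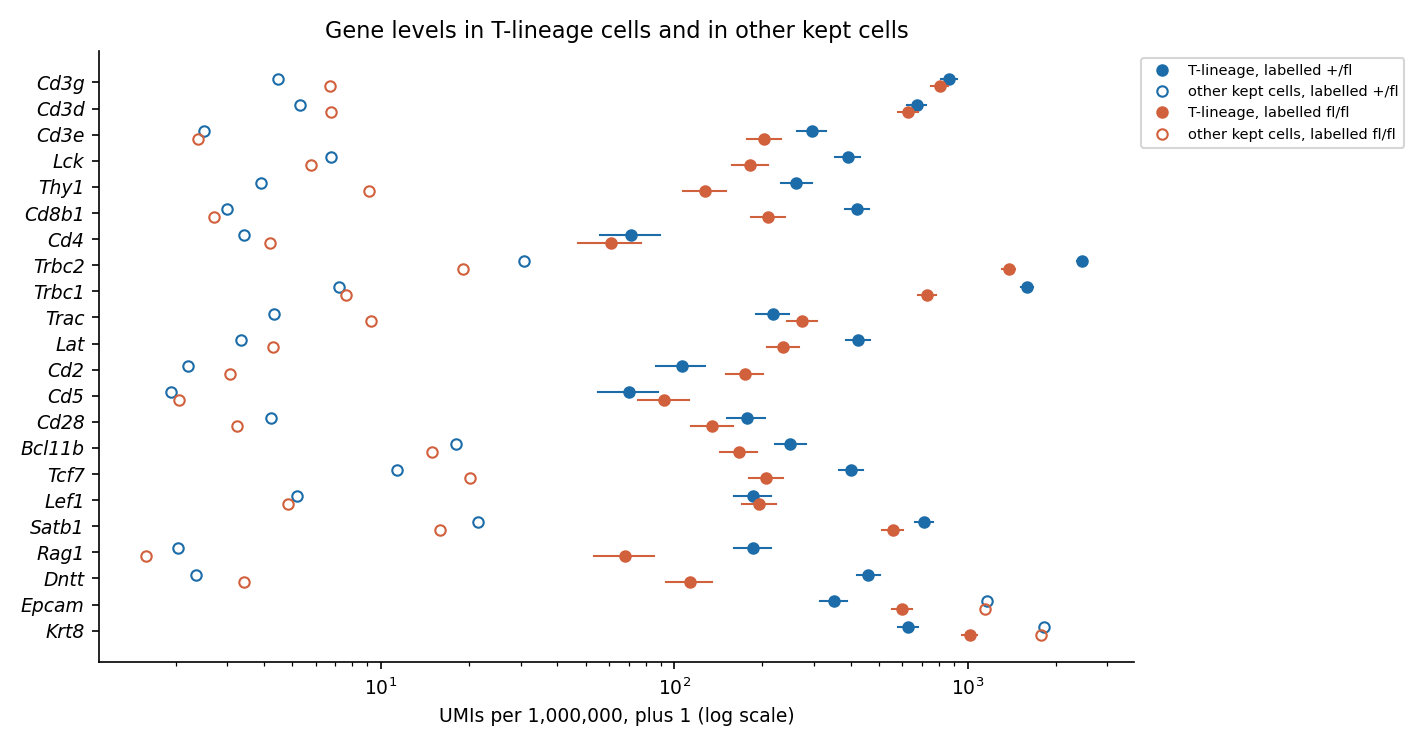
Level of 22 genes, as UMIs per 1000000 plus 1 on a log axis, in T-lineage cells (filled, with 95% counting intervals) and in the other kept cells (open) of the +/fl-labelled and fl/fl-labelled libraries. T-cell genes lie well to the right in T-lineage cells of both libraries, such as Trbc1 at 1594 and 726 CPM against 6.21 and 6.62, while Epcam and Krt8 lie to the left of their level in other cells.

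Epithelial RNA was present in the T-lineage cells at a reduced level. The 14 epithelial genes summed to 4496 and 4259 CPM in T-lineage cells, which was 40.7% and 47.5% of the level in the other kept cells. Epcam, the surface protein of the sort, was at 349 CPM (314 to 387) and 596 CPM (551 to 644) against 1168 and 1145 CPM in others. After each cell was thinned at random to 1000 UMIs, Epcam was seen in 12.5% and 20.1% of T-lineage cells, 17.8% and 35.8% of the dendritic cells of the same sort (309 and 388 cells with at least 2 of Flt3, Tyrobp and Ccr7), and 59.3% and 56.5% of all other kept cells. The median depths before thinning were 5787 and 4104 UMIs in T-lineage cells and 12401 and 13323.5 UMIs in dendritic cells. Without thinning, 36 of 88 (40.9%, interval 30.5 to 51.9) and 62 of 139 (44.6%, interval 36.2 to 53.3) T-lineage cells had an Epcam UMI. Per cell, the epithelial genes made up a median of 12.8 and 15 UMIs per 10000, against 95.9 and 71.3 in other kept cells. A level of at least 0.5 times the median of the other cells was reached by 9 T-lineage cells (10.2%) of the +/fl-labelled library and 37 (26.6%) of the fl/fl-labelled library.

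T-lineage cells with and without Epcam differed in depth and in T-cell RNA. Those with Epcam had medians of 11800.5 and 8980.5 UMIs, and those without had 2808.5 and 2949. The 26 T-lineage genes outside the choice summed to 11831 and 12009 CPM in cells without Epcam, nearly the same level in the libraries. In cells with Epcam the sums were 7007 and 3084 CPM, lower than in cells without Epcam in both libraries and lower in the fl/fl-labelled library. T-cell receptor constant-region UMIs per UMI of the CD3 chains numbered 2.21 and 1.82 in cells without Epcam, and 2.43 and 1.14 in cells with Epcam. Over 2 in 5 T-lineage cells carry Epcam UMIs. Comparisons between the libraries are therefore given below for all T-lineage cells and for the 52 and 77 with 0 Epcam UMIs. Deep barcodes weigh on that second set too. Cells with over 10000 UMIs held 785365 and 669400 UMIs, of which 638095 and 604877 were in cells with Epcam. The second set held 305649 and 302116 UMIs, and deep cells made up more of it in the +/fl-labelled library.

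**Figure D2:**
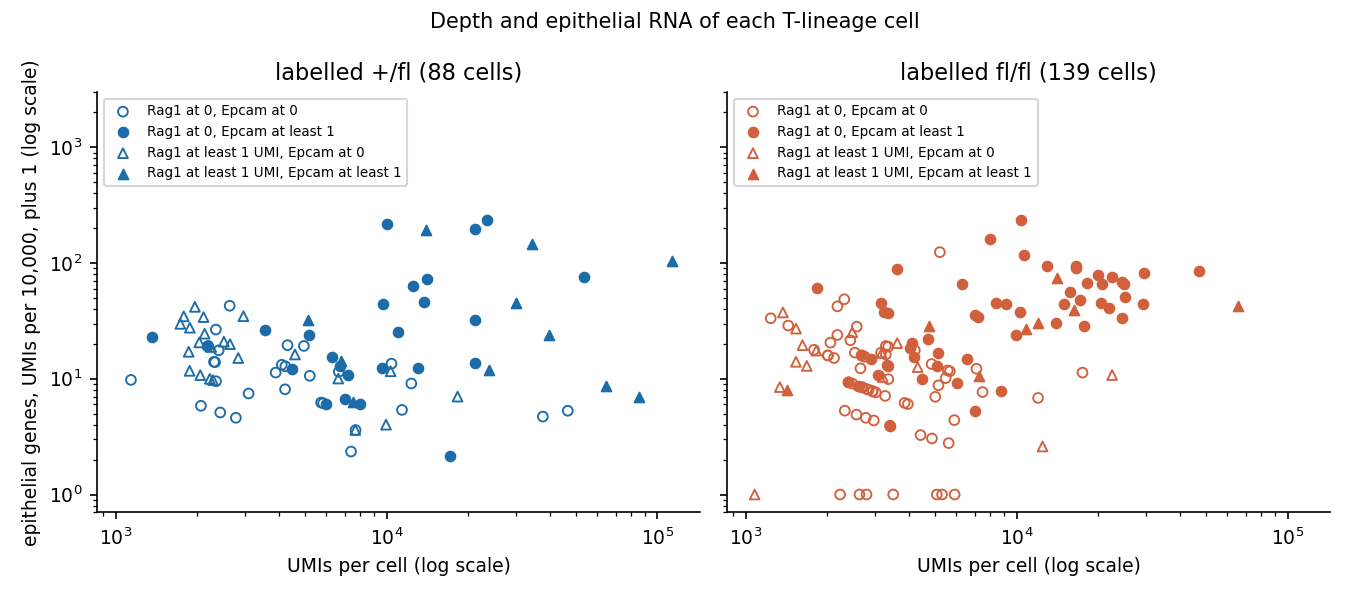
Each point is 1 T-lineage cell, with its UMIs on the x axis and the UMIs of 14 epithelial genes per 10000, plus 1, on the y axis (both log scales), for the 88 cells of the +/fl-labelled and 139 cells of the fl/fl-labelled library. Filled symbols have at least 1 Epcam UMI and triangles at least 1 Rag1 UMI. Cells over 10000 UMIs are mostly filled (20 of 27 and 29 of 33), and the highest epithelial level was 234 per 10000 in either library.

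Stages were read from UMIs of Rag1, the recombinase of receptor gene assembly, of the coreceptor Cd4 and of Cd8 (Cd8a or Cd8b1). Rag1 and Cd8a were not used in choosing the cells, whereas Cd4 and Cd8b1 were. At 1000 UMIs per cell, Rag1 was seen in 18 of 88 (20.5%, interval 12.6 to 30.4) and 16 of 139 (11.5%, interval 6.72 to 18.0) T-lineage cells, with overlapping intervals. Without thinning, the shares were 38.6% (28.4 to 49.6) and 16.5% (10.8 to 23.8), which did not overlap. The other kept cells had Rag1 in 0.0599% and 0.0372% after thinning and 0.319% and 0.397% without it. Dendritic cells had Rag1 in 0 of 309 and 0 of 388 after thinning, which allows shares of up to 0.971% and 0.773% with a UMI at that depth, and in 0 of 309 and 5 of 388 (1.29%) without thinning. The T-lineage shares were above those of both other populations, with and without thinning, in both libraries. At 2000 UMIs, which left out 8 and 13 shallow T-lineage cells, Rag1 was seen in 26.2% (17.0 to 37.3) and 4.76% (1.77 to 10.1). Of the cells left out, 6 and 9 had Rag1, so many of the Rag1-positive cells of the fl/fl-labelled library were shallow. Averaged over all possible draws, thinning would show Rag1 in 19.8% and 9.7% at 1000 UMIs and in 23.7% and 6.48% at 2000. Without the cells that had no receptor UMI, the shares at 1000 UMIs were 21.8% and 11.6%, and among cells with 0 Epcam UMIs they were 26.9% and 16.9%.

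Cd4 and Cd8 were seen together, as in double positive thymocytes, in 12.5% (6.41 to 21.3) and 4.32% (1.60 to 9.16) of T-lineage cells at 1000 UMIs, and in 31.8% (22.3 to 42.6) and 15.1% (9.60 to 22.2) without thinning. Cd4 without Cd8 was seen in 2.27% (0.276 to 7.97) and 8.63% (4.54 to 14.6), and in 7.95% and 15.8% without thinning. Cd8 without Cd4 was the more frequent single gate, with 34.1% (24.3 to 45.0) and 25.9% (18.8 to 34.0), and 38.6% and 35.3% without thinning. Neither coreceptor was seen in 51.1% and 61.2% at 1000 UMIs and in 21.6% and 33.8% without thinning, so the gates depend on depth and are not cell types. At 1000 UMIs, Cd4 was seen in 0.239% and 0.459% of the other kept cells and Cd8 in 0.379% and 0.384%, values that describe the choice, since Cd4 and Cd8b1 were part of it. The thinned intervals of the libraries overlapped in each of the 4 coreceptor gates.

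Rag1 and the coreceptors were found in the same cells. Without thinning, all 34 Rag1-positive cells of the +/fl-labelled library had Cd8, and 21 of them had Cd4 too. Of the 23 Rag1-positive cells of the fl/fl-labelled library, 21 had Cd8 and 11 had Cd4 and Cd8. Among Rag1-negative cells, Cd4 without Cd8 was found in 7 of 54 and 22 of 116, Cd8 without Cd4 in 21 and 39, both in 7 and 10, and neither in 19 and 45. Without thinning, no cell with Cd4 and without Cd8 had a Rag1 UMI in either library (0 of 7 and 0 of 22).

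**Figure D3:**
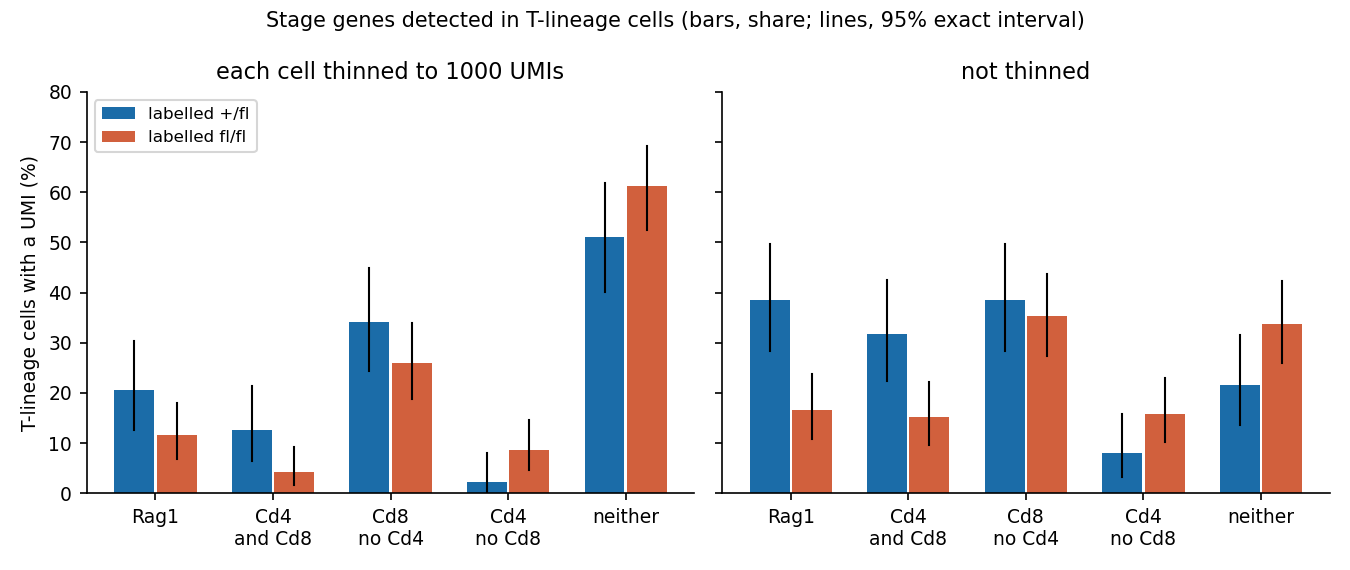
Share of T-lineage cells with a UMI of Rag1, of Cd4 and Cd8, or of either coreceptor alone, per library, after thinning to 1000 UMIs (left) and without thinning (right), with 95% exact intervals as lines. Rag1 stood at 20.5% and 11.5% after thinning and at 38.6% and 16.5% without it, in the +/fl-labelled and fl/fl-labelled libraries.

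Genes of the double positive stage were at a lower level in the fl/fl-labelled library. Of 14 genes listed, 12 had at least 50 UMIs. All 12 had a lower level in the fl/fl-labelled library, against 53.8% of 5696 genes. Of the 12, 9 were at least 2-fold lower, against 5.09%. The list includes Cd8b1, which was used in the choice. The median log2 ratio of the fl/fl-labelled over the +/fl-labelled library, with 1 CPM added to each, was -1.34, against -0.06 for all genes. Among cells with 0 Epcam UMIs the same 12 genes were all lower, against 2798 of 5696 genes. Of the 12, 6 were at least 2-fold lower (against 9.01% of all genes in those cells), with a median of -0.89. Without the cells lacking a receptor UMI the median was -1.22. Among cells with at most 10000 UMIs, a limit chosen after seeing the data, all 12 were lower, against 2900 of 5696 genes. There 9 were at least 2-fold lower (against 6.11%), with a median of -1.33. As a mean of each cell's own CPM all 12 were lower with a median of -0.98, and the log2 ratios of Rag1 and Arpp21 were -0.91 and -0.85, under 2-fold, in place of -1.44 and -1.56.

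Dntt, the terminal transferase that adds untemplated bases at receptor junctions, was at 458 CPM (418 to 501) in the +/fl-labelled library and 112 CPM (92.8 to 134) in the fl/fl-labelled library. That is a 4.10-fold difference, and in cells with 0 Epcam UMIs Dntt stood at 717 and 156 CPM. Rag1 was at 185 CPM (159 to 213) and 67.1 CPM (52.5 to 84.6), and in cells with 0 Epcam UMIs at 226 and 162 CPM, a log2 ratio of -0.47. Arpp21, a thymocyte phosphoprotein that modulates receptor signalling, was at 235 and 79.3 CPM, and Cd8a at 307 (274 to 342) and 142 CPM (120 to 166). Endou (191 and 68.1 CPM), Aqp11 (86.5 and 28.0 CPM), Mns1 (111 and 45.7 CPM) and the noncoding Dgkeos (79.8 and 28.9 CPM) were ordered in the same way. The 3 genes that were less than 2-fold apart were Rmnd5a (104 and 58.8 CPM), the E protein gene Tcf12 (170 and 106 CPM) and Ets2 (106 and 69.9 CPM). Rag2, the partner of Rag1, had only 11 and 5 UMIs.

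Promoter sequences are shown for Rag1 and Dntt, which differed between the libraries, and for Cd3e, a choosing gene found in 74 and 102 T-lineage cells, as context for a study of Ikaros, a zinc finger protein whose binding core is GGGAA. Each is the 250 bases before the RefSeq start (GRCm38.p6), 5' to 3' on the gene's strand, with matches to GGGAA or its reverse complement TTCCC in capitals. The Rag1 window is chr2:101649533-101649782 on the minus strand, the Dntt window chr19:41029025-41029274 on the plus strand and the Cd3e window chr9:45009612-45009861 on the minus strand.
Rag1: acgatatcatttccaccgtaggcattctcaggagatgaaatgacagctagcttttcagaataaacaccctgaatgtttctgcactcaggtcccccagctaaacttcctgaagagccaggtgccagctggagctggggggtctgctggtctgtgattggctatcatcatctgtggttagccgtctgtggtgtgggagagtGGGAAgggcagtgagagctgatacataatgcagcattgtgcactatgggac
Dntt: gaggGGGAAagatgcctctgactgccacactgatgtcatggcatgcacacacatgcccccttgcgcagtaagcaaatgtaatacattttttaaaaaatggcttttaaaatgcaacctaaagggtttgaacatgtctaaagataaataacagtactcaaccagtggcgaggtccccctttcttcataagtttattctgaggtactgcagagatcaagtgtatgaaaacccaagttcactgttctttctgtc
Cd3e: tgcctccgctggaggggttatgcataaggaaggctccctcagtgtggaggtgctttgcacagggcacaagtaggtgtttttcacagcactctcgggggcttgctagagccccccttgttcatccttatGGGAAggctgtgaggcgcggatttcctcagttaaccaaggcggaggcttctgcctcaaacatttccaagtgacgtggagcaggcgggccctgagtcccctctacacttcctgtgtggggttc
Each window held 1 match, which began 51, 246 and 122 bases before the start. Rag2, Cd3d and Cd3g also had 1 match each in their windows. Of 32851 such windows in the RefSeq table, 56.2% held GGGAA on either strand, so its presence does not set these genes apart. The Rag1 window also held 1 CACCTG and 1 CAGCTG, E-box motifs of the kind bound by E proteins, which 17.2% and 13.0% of windows held on either strand, and the Dntt and Cd3e windows held neither. None of the 3 motifs contains another. A match is a description of the letters and not a measured site.

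Splitting the T-lineage cells by Rag1 gave the same division of stage genes in both libraries. The 34 and 23 cells with a Rag1 UMI had medians of 3779 and 3208 UMIs, below the 6122.5 and 4202 UMIs of the 54 and 116 cells without. However, 424925 of the 519603 and 132307 of the 196100 UMIs with Rag1 were in 11 and 8 cells that also had Epcam. The deepest of these held 113446 and 65659 UMIs. Pooled levels with Rag1 therefore mostly describe few deep barcodes with epithelial RNA. Excluding Rag1 itself, 9 of the 11 other double positive genes with at least 50 UMIs were at least 2-fold higher with Rag1 in both libraries, against 2.46% of 5696 genes. Arpp21 stood at 383 and 326 CPM with Rag1 and at 88.3 and 24.0 CPM without. Endou stood at 316 CPM in both libraries with Rag1 and at 67.2 and 12.6 CPM without, and Dntt at 641 and 459 CPM against 276 and 34.2 CPM. Rag1-positive cells thus had similar levels of Arpp21 and Endou in the libraries, and the libraries lay further apart in the cells without Rag1. The signalling protein gene Themis, which is needed for positive selection, was also higher with Rag1, with log2 ratios of 2.05 and 1.75.

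Genes of maturation ran the other way. Of 15 mature single positive genes with at least 50 UMIs, 8 were at least 2-fold lower with Rag1 in both libraries, against 2.7% of all genes, with list medians of -1.54 and -1.75. Il7r, the receptor of the survival cytokine interleukin 7, was at 1.92 and 15.3 CPM with Rag1 and 57.6 and 53.6 CPM without. Ms4a4b, a membrane protein of mature T cells, was at 7.70 and 10.2 CPM against 117 and 201 CPM. S1pr1, the receptor that guides exit from the thymus, was at 0 and 10.2 CPM with Rag1 against 67.2 and 41.1 CPM. The cells with Rag1 held only 519603 and 196100 UMIs in all. The low levels with Rag1 in this paragraph therefore rest on few UMIs, and their size is uncertain. Genes raised by receptor signalling were also lower with Rag1, 7 of 12 by at least 2-fold in both libraries. Cd69 (9.62 and 20.4 CPM against 72.9 and 126 CPM), the orphan nuclear receptor Nr4a1 (57.7 and 51.0 against 163 and 223 CPM) and the receptor tuning molecule Cd5 (28.9 and 10.2 against 109 and 110 CPM) were of this kind. Receptor beta UMIs were higher with Rag1 (Trbc1 at 2075 and 1295 CPM against 1115 and 599 CPM), whereas the alpha chain Trac was lower (171 and 133 against 261 and 304 CPM).

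The genes ranked highest with Rag1 were Prss16, Psmb11, Dlk1, Trdc, Hist1h3c, Ube2c, Endou, Aqp11, Rmnd5a and Gm37065. The first 3 rest on few barcodes. Psmb11, the thymoproteasome subunit of cortical epithelium, had 75 of its 89 UMIs in the +/fl-labelled library in 1 cell, the deepest one with 113446 UMIs. The thymus-specific protease Prss16 had 130 of 181 UMIs in that cell, which also held 71 Epcam, 182 Trbc1 and 5 Rag1 UMIs. Dlk1 had 37 of its 47 UMIs in the fl/fl-labelled library in 1 cell. The genes ranked lowest with Rag1 were Xcl1, Klk7, Ifitm1, Klk1b26, Pcp2, Pla2g1b, Gzmb, Ccl2, Myl7 and Rgs1. Xcl1, a chemokine of killer lymphocytes, was found in 7 and 6 cells with 65 and 27 UMIs in the highest cell, and the cytotoxic protease Gzmb in 3 and 4 cells, all without Rag1. Klk7, Klk1b26, Pcp2, Pla2g1b and Myl7 are genes of other tissues found in 1 to 9 T-lineage cells per library.

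**Figure D4:**
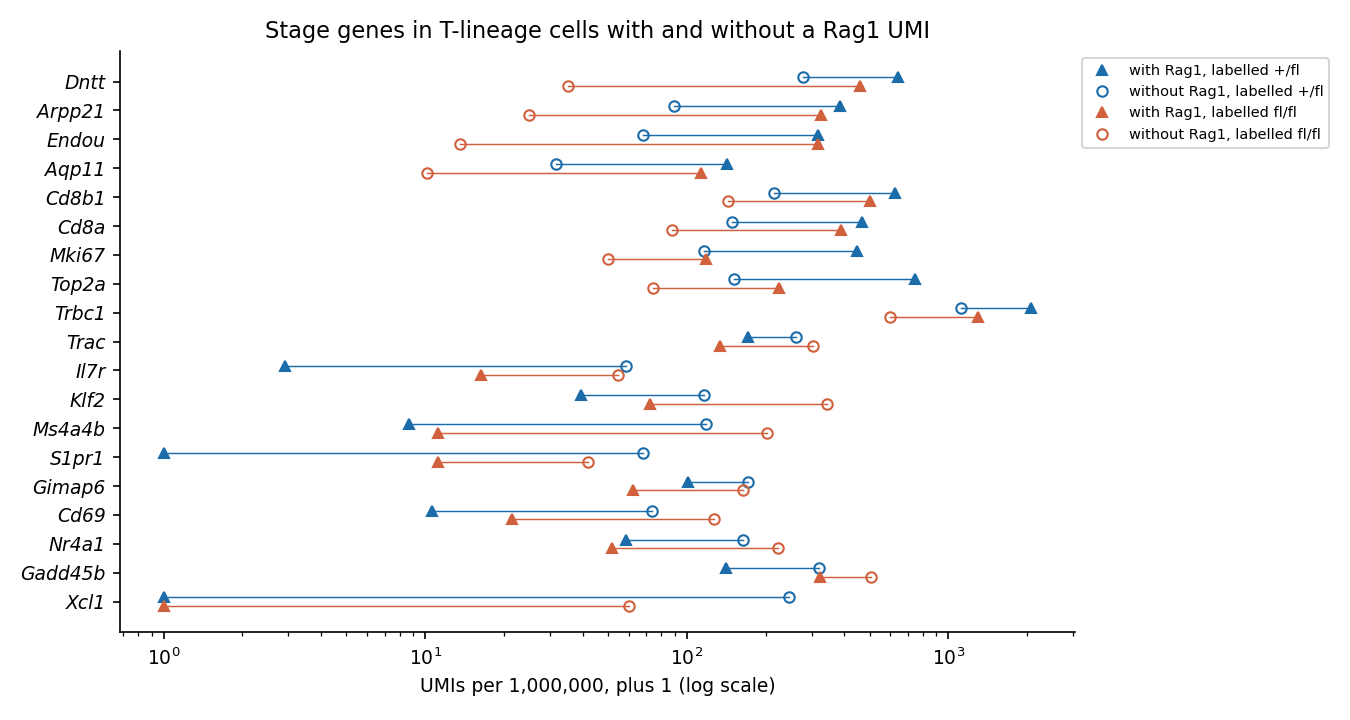
Level of 19 stage genes, as UMIs per 1000000 plus 1 on a log axis, in T-lineage cells with a Rag1 UMI (triangles) and without (open circles), per library, joined by a line. Recombination and double positive genes from Dntt to Cd8a lie to the right with Rag1 in both libraries, and maturation and signalling genes such as Ms4a4b and Cd69 lie to the left.

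Cell cycle genes were lower in T-lineage cells of the fl/fl-labelled library. Of 18 genes, 17 had at least 50 UMIs, all 17 were lower, against 53.8% of all genes, and 13 were at least 2-fold lower, against 5.09%, with a median log2 ratio of -1.79. Among cells with 0 Epcam UMIs the same 17 were lower, against 2798 of 5696 genes. There 13 were at least 2-fold lower (against 9.01%), with a median of -1.59. Among cells with at most 10000 UMIs 15 of the 17 were lower, against 2900 of 5696 genes. There 10 were at least 2-fold lower (against 6.11%), with a median of -1.45. Mki67, the proliferation marker, was at 281 CPM (249 to 315) and 61.6 CPM (47.6 to 78.3), against 32.7 and 34.5 CPM in other cells. It was seen in 23 of 88 (26.1%) and 15 of 139 (10.8%) T-lineage cells. At 1000 UMIs the shares were 11.4% (5.59 to 19.9) and 2.88% (0.790 to 7.20), with overlapping intervals. The other kept cells had 1.68% and 1.87% at that depth. Among T-lineage cells with 0 Epcam UMIs the shares at 1000 UMIs were 7.69% (2.14 to 18.5) and 5.19% (1.43 to 12.8). At 2000 UMIs they were 20% (9.58 to 34.6) and 3.03% (0.369 to 10.5), also with overlapping intervals. Top2a, the topoisomerase of dividing cells, was at 448 and 101 CPM and Rrm2, the ribonucleotide reductase subunit of S phase, at 174 CPM (150 to 201) and 13.1 CPM (7.14 to 21.9). Rrm2, Nusap1, Pclaf and Hist1h1b were among the 10 lowest ratios of all genes, with log2 ratios of -3.64, -3.55, -3.40 and -3.08. Single cells weighed on these sums, since the highest cell held 66 of the 292 Mki67 UMIs and 94 of the 466 Top2a UMIs of the +/fl-labelled library. Of the 17 genes, 7 were at least 2-fold higher with Rag1 in both libraries, against 2.46% of all genes, such as Top2a at 747 and 224 CPM with Rag1 and 150 and 73.0 CPM without.

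Genes of maturation were at a higher level in the fl/fl-labelled library. Of 16 mature single positive genes, 15 had at least 50 UMIs. All 15 had ratios at or above 0, where 46.2% of all genes were higher. Of them, 5 were at least 2-fold higher, against 8.2% of all genes, and the median of the 15 was 0.65. The 5 were Gimap3, Klf2, Ms4a4b, Ms4a6b and Gimap4. Klf2, the transcription factor that keeps T cells quiescent and induces S1pr1, was at 76.9 CPM (61.0 to 95.7) and 294 CPM (262 to 328). In cells with 0 Epcam UMIs it was at 75.2 and 453 CPM. At 1000 UMIs Klf2 was seen in 9.09% (4.01 to 17.1) and 15.1% (9.6 to 22.2) of T-lineage cells. The other kept cells had 11.8% and 15.4% at that depth. Among T-lineage cells with 0 Epcam UMIs the shares were 9.62% (3.2 to 21) and 18.2% (10.3 to 28.6). The intervals of the libraries overlapped in both sets of T-lineage cells. Ms4a4b was at 62.5 CPM (48.2 to 79.6) and 166 CPM (143 to 192), and in cells with 0 Epcam UMIs at 134 and 308 CPM. Its log2 ratio of 1.40 was 0.60 among cells with at most 10000 UMIs and 0.91 as a mean of each cell's own CPM, both under 2-fold, and that of Klf2 was 1.13 and 1.58, in place of 1.92. Gimap4, a GTPase of lymphocyte survival, was at 26.9 and 60.6 CPM, and Gimap3 at 7.69 (3.32 to 15.1) and 39.2 CPM (28.2 to 52.9). Il7r was at 29.8 (20.2 to 42.3) and 46.6 CPM (34.6 to 61.5), with overlapping intervals. Foxo1, Bcl2, Slfn2, S1pr1 and Gimap6 had ratios of at most 0.09. Among cells with 0 Epcam UMIs the 15 genes were all higher, against 2839 of 5696 genes. Of the 15, 8 were at least 2-fold higher (against 10.8% of all genes in those cells), with a median of 1.19. Among cells with at most 10000 UMIs 10 of the 15 were higher, against 2768 of 5696 genes, with a median of 0.46. There 2 were at least 2-fold higher, a share near the 11.4% of all genes in those cells. Some of these genes are also expressed by other cells of the sort: Klf2 stood at 151 and 199 CPM and the MHC class I chain H2-K1 at 2985 and 4084 CPM in the other kept cells, and in T-lineage cells H2-K1 was at 1430 and 2721 CPM. Ms4a4b and Ms4a6b were at 2.18 CPM or less in other cells.

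Genes raised by receptor signalling showed smaller differences. Of 12 with at least 50 UMIs, 11 were higher in the fl/fl-labelled library, against 46.2% of all genes, and 2, Cd69 and Gadd45b, at least 2-fold, against 8.2%, with a median of 0.59. As a mean of each cell's own CPM the log2 ratio of Gadd45b was 0.93 in place of 1.04. Cd69, the early activation antigen that retains thymocytes in the medulla, was at 41.3 CPM (29.9 to 55.7) and 106 CPM (87.7 to 128). It was seen at 1000 UMIs in 3.41% (0.709 to 9.64) and 15.8% (10.2 to 23.0) of T-lineage cells, and without thinning in 26.1% and 36.0%. At 2000 UMIs the shares were 10% (4.42 to 18.8) and 19.8% (13.3 to 27.9). With 0 Epcam UMIs they were 3.85% (0.469 to 13.2) and 18.2% (10.3 to 28.6) at 1000 UMIs. The intervals overlapped in these last 2 settings. The other kept cells had Cd69 in 0.220% and 0.508% at 1000 UMIs. Nr4a1, an immediate target of receptor signals, was at 111 and 191 CPM, though the other kept cells had 90.2 and 52.6 CPM. The thymocyte membrane protein Itm2a was at 138 and 200 CPM, Cd5 at 69.2 and 91.4 CPM, Helios (Ikzf2) at 194 and 195 CPM and the regulator Tox at 69.2 and 62.5 CPM. Among cells with 0 Epcam UMIs all 12 were higher, against 2839 of 5696 genes. Of them, 6 were at least 2-fold higher (against 10.8%), with a median of 1.01. Among cells with at most 10000 UMIs 10 of the 12 were higher, against 2768 of 5696 genes. There 2 were at least 2-fold higher (against 11.4%), and the median was smaller, at 0.26. Beside this, 14 of 16 genes of dissociation stress were higher in T-lineage cells of the fl/fl-labelled library, against 46.2% of all genes. Their median was 0.41. Fos was at 739 and 709 CPM, Jun at 870 and 882 CPM and the heat shock gene Hspa1a at 434 and 941 CPM. The part of dissociation in the signalling genes was not tested.

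**Figure D5:**
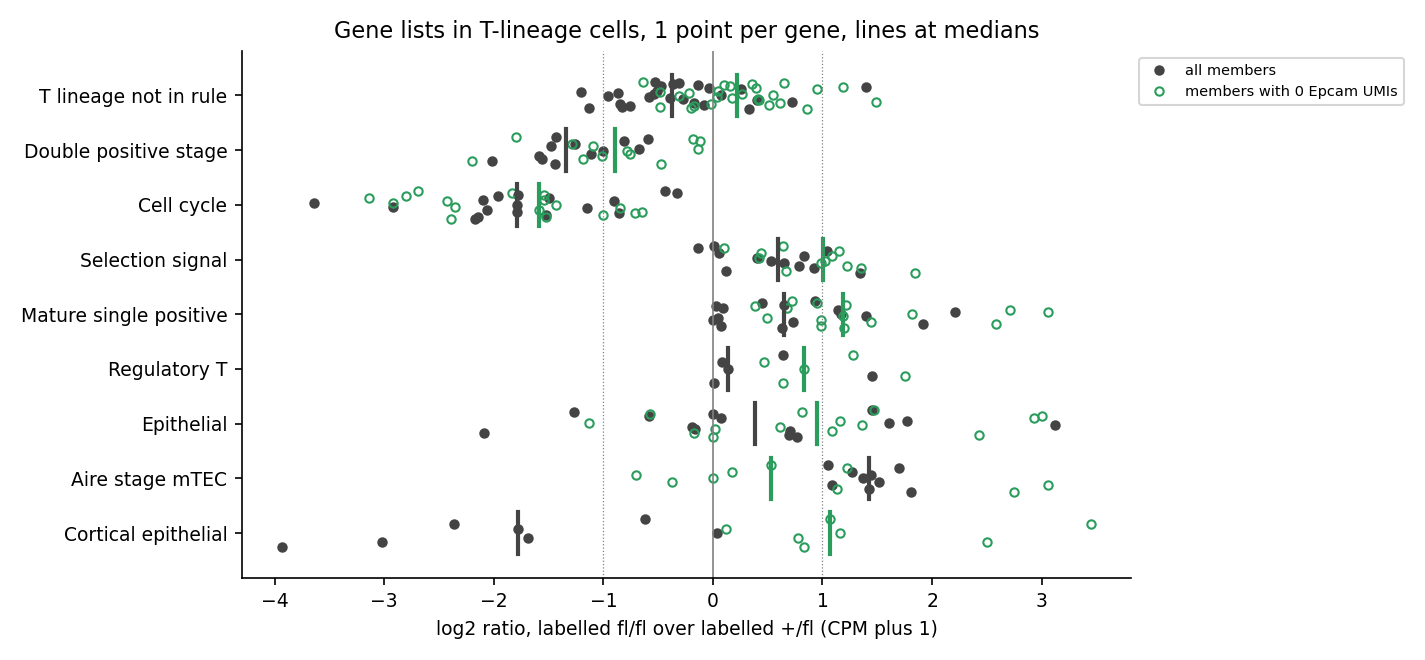
Log2 ratio of the fl/fl-labelled over the +/fl-labelled library in T-lineage cells for each gene of 9 lists (1 point per gene with at least 50 UMIs, thick lines at list medians), for all T-lineage cells (dark) and for those with 0 Epcam UMIs (green, open). Dotted lines mark 2-fold. Double positive and cell cycle genes lie left of 0 in both sets of cells (medians -1.34 and -1.79 over all cells) and mature genes at or right of it (median 0.65), while the general T-lineage list has medians of -0.37 and 0.22 and the cortical epithelial list of -1.78 and 1.07 in the respective sets.

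The general T-lineage genes did not keep their direction when cells with Epcam were left out. Over all T-lineage cells, 20 of the 26 genes outside the choice were lower in the fl/fl-labelled library, against 53.8% of all genes, with a median of -0.37. The 2 that were at least 2-fold lower are a share near the 5.09% of all genes. The same 26 genes had a median of 0.22 in cells with 0 Epcam UMIs, where 8 were lower, and -0.15 without the cells lacking a receptor UMI. Trbc1, at 1594 and 726 CPM over all cells, was at 2042 and 1774 CPM in cells with 0 Epcam UMIs, and Lat, at 424 and 234 CPM over all cells, was at 540 and 533 CPM. The 7 choosing genes were all lower over all cells (median -0.54), and 4 were lower in cells with 0 Epcam UMIs (median -0.17). Cd2 was higher in the fl/fl-labelled library in both sets, at 105 and 173 CPM and at 144 and 407 CPM.

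Receptor genes beyond the alpha and beta chains were few. Trdc, the delta chain constant region, whose locus lies inside that of the alpha chain, was seen in 17 and 6 T-lineage cells, at 99.0 CPM (80.8 to 120) and 22.4 CPM (14.3 to 33.3). Every Trdc cell also had Trbc UMIs, and 13 and 4 of them had Rag1. Trdc and a gamma constant region were seen together in 7 and 2 cells, with medians of 39694 and 17500 UMIs. Cells with both but neither Trac nor Trbc, a strict gate for gamma delta T cells, numbered 0 in both libraries. Without thinning, Trbc UMIs were also found in 16.5% and 11.3% of the other kept cells. A deep barcode can thus fail this gate whatever its type, and no absence of gamma delta T cells is read from it. Of 75 and 85 T-lineage cells with at least 10 UMIs of the beta constant regions, Trbc1 made up at most 10% of these UMIs in 24 and 29 cells, between 10% and 90% in 51 and 53, and at least 90% in 0 and 3. Trbc1 and Trbc2 are near-identical copies, so how their UMIs were divided in counting is uncertain, and no chain use is read from these shares. Of the early stage before beta selection, Ptcra, the surrogate alpha chain, was seen in 10 and 9 cells and Il2ra in 9 and 12. Il2ra stood at 12.5 and 17.7 CPM, below the 18.9 and 27.4 CPM of the other kept cells. The early stage list had 4 of 10 genes with at least 50 UMIs, 3 of them lower in the fl/fl-labelled library, against 53.8% of all genes.

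Several genes that set the CD4 and regulatory lineages had few UMIs. Of the CD4 lineage list 3 of 5 genes and of the CD8 lineage list 6 of 6 had at least 50 UMIs. Their medians were -0.23 and -0.24 over all T-lineage cells and 0.27 and 0.48 in those with 0 Epcam UMIs. These lists include Cd4 and Cd8b1, respectively, which were used in the choice. Zbtb7b, the CD4 lineage factor ThPOK, had 5 and 14 UMIs and Cd40lg, the helper cell ligand of CD40, 2 and 16. The CD8 lineage factor Runx3 was at 49.0 and 69.0 CPM, close to the 38.5 and 58.6 CPM of the other kept cells. Foxp3, the factor of regulatory T cells, had 0 UMIs in the +/fl-labelled library and 1 in the fl/fl-labelled one. Tnfrsf4, the receptor OX40 of regulatory and activated T cells, was at 20.2 (12.5 to 30.8) and 56.9 CPM (43.5 to 73.1), and the related Tnfrsf18 at 51.9 and 55.0 CPM. All 5 regulatory T genes with at least 50 UMIs had ratios above 0, against 46.2% of all genes, with a median of 0.14. Ccr9, the receptor that draws thymocytes to Ccl25, was at 239 and 170 CPM, against 3.74 and 4.41 CPM in other cells. Of the gamma delta and innate-like list, 5 of 13 genes had at least 50 UMIs, with a median of -1.45 over all T-lineage cells and -0.02 in those with 0 Epcam UMIs, and several rested on few cells. Gzmc, a cytotoxic protease, had 283 of its 292 UMIs in the +/fl-labelled library in 1 cell, and the fl/fl-labelled library had 6 UMIs in 4 cells.

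The 10 genes highest in the fl/fl-labelled over the +/fl-labelled library were genes better known from other tissues, and single barcodes carried several of them. They were Mt4, Fabp6, Dppa3, Chil3, Csn1s2a, Pgc, Csrp3, Spp1, Car3 and Apod. Mt4, a metallothionein of squamous epithelium, had 0 UMIs in the +/fl-labelled library and 481 in 7 cells of the fl/fl-labelled one, 334 of them in 1 cell. Against a floor of 3 UMIs over all T-lineage cells of the library, its level was at least 156-fold higher. Dppa3, a germ cell gene, had 0 and 236 UMIs with 226 in 1 cell, and the chitinase-like Chil3 0 and 180 UMIs with 179 in 1 cell. The ileal bile acid binding protein gene Fabp6 had 0 and 317 UMIs, the latter in 14 cells. Without the 11 cells lacking a receptor UMI, the log2 ratios of Mt4, Car3 and Pgc were 2.15, 1.72 and 0.00, in place of 8.81, 6.69 and 7.28. Mt4, Csn1s2a, Pgc, Csrp3 and Car3 had no UMI in the cells with 0 Epcam UMIs of either library. Of the 10 lowest, which were Xist, Akr1c21, Gzmc, Ccl6, Ccl20, Krtdap, Rrm2, Nusap1, Pclaf and Hist1h1b, several also came from single barcodes. Akr1c21 had 126 UMIs in 1 cell of the +/fl-labelled library and 0 in the other. The chemokine Ccl20 had 451 of its 457 UMIs in 1 cell of the +/fl-labelled library and 29 in 18 cells of the fl/fl-labelled one. In cells with 0 Epcam UMIs Ccl20 was at 0 CPM in the +/fl-labelled and 29.8 CPM in the fl/fl-labelled library.

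Markers of the surrounding cell types also differed between the libraries within the T-lineage cells. All 9 Aire-stage mTEC genes with at least 50 UMIs were at least 2-fold higher in T-lineage cells of the fl/fl-labelled library, against 8.2% of all genes, with a median of 1.42 and summed levels of 7765 and 19829 CPM, which were 54.0% and 73.9% of the 14385 and 26828 CPM in other cells. Aire, the regulator of tissue antigens in mTECs, was at 90.3 and 320 CPM in T-lineage cells and 148 and 324 CPM in others. The summed level in cells with 0 Epcam UMIs was 1881 and 1936 CPM. Of 7 cortical epithelial genes, 6 were lower in the fl/fl-labelled library (median -1.78), against 53.8% of all genes. The deepest cell of the +/fl-labelled library held 713 of that library's 1185 UMIs of the protease Ctsl. In cells with 0 Epcam UMIs the summed level of the cortical genes was 252 and 371 CPM. The 13 dendritic and myeloid genes summed to 639 and 1488 CPM, 45.9% and 72.9% of other cells, with Flt3, which the choice limited, Cd209a and Siglech at 0 in both libraries. The 9 tuft genes, 3 of which the choice limited, summed to 95.1 and 77.4 CPM (3.66% and 11.2% of other cells). B-lineage genes summed to 160 and 138 CPM, with Cd79a or Ms4a1 in 0 and 4 T-lineage cells, and red cell genes to 0 and 11.2 CPM. The stage differences between the libraries had the same direction in cells with 0 Epcam UMIs, and the part of epithelial RNA in their size over all cells was not tested.

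Ikzf1 itself, which encodes Ikaros and is expressed throughout T-cell development, was measured in T-lineage cells of both libraries. It was at 160 CPM (137 to 187) in the +/fl-labelled and 109 CPM (90.2 to 131) in the fl/fl-labelled library, a log2 ratio of -0.55 (-0.91 to -0.21). In cells with 0 Epcam UMIs it was at 190 CPM (144 to 245) and 209 CPM (160 to 267), a log2 ratio of 0.14 (-0.40 to 0.68). Cells with Epcam were at 148 CPM (122 to 179) and 70.1 CPM (52.7 to 91.5). The T-lineage difference over all cells was thus seen in the cells that carry Epcam UMIs and not detected at this depth in those without. Without the cells lacking a receptor UMI the log2 ratio was -0.39. Cells with Rag1 were at 154 and 138 CPM and cells without at 167 and 103 CPM. At 1000 UMIs, Ikzf1 was seen in 30.7% (21.3 to 41.4) and 15.8% (10.2 to 23.0) of T-lineage cells, and without thinning in 72.7% and 46.8%. The level in other kept cells with Epcam was 63.2 and 36.5 CPM and in the dendritic cells 61.2 and 44.9 CPM, below T-lineage cells in both libraries. Whether the UMIs come from a deleted or an intact allele cannot be told from 3' counts. Of the related factors, Ikzf3 (Aiolos) was at 28.8 and 28.9 CPM in T-lineage cells and Ikzf2 at 194 and 195 CPM.

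In the GENCODE M21 annotation of GRCm38, Rag1 lies on chromosome 2 at 101638282 to 101649501 on the minus strand beside Rag2 at 101624718 to 101632529, and Dntt on chromosome 19 at 41029275 to 41059525. Cd3g, Cd3d and Cd3e lie together on chromosome 9, at 44969572 to 44980431, 44981786 to 44987339 and 44998740 to 45009627. Ikzf1 is on chromosome 11 at 11685003 to 11772926. Trbc1 and Trbc2 are neighbours on chromosome 6 at 41538218 to 41539881 and 41546730 to 41548352, and Trdc precedes Trac on chromosome 14, at 54142851 to 54148868 and 54220521 to 54224206.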

How the data were processed

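Thymus cells of 2 mouse libraries were measured, 1 per genotype label. The authors deposited unnormalised UMI counts for each gene and barcode. The submitters' processing notes name Cell Ranger and Seurat, without versions. The matrix headers carry the version string 3.1.0, and the genome build is not given in the sources used here. Cells were kept that had 500 or more genes, 1000 or more UMIs and no more than 15% of UMIs from mitochondrial genes, 5099 of 7304 and 8208 of 11095, with no doublet removal. Kept cells held 72888554 and 91500724 UMIs, T-lineage cells 1040577 and 1072267.

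UMIs were summed per library and scaled to CPM with exact Poisson intervals, and shares have exact Clopper-Pearson intervals at 95%. Log2 ratios carry 1 CPM in both terms. Symbols with several identifiers were summed. Genes with at least 50 UMIs over both libraries (5696) were compared, and 2-fold is the size reported, with no test. Shares were compared after thinning to 1000 UMIs. Named genes are the 20 highest against other cells, the 10 highest and lowest between libraries (at least 100 CPM in either) and with against without Rag1, and genes of 23 fixed lists. The cells and lists were chosen with earlier results of these data known. Python 3.11.15 with scanpy 1.11.5 was used, and edgeR 4.0.16 for TMM factors only. The script was tested on simulated data. Promoters of 6 of 6 genes sought matched the RefSeq table. Alternatives were stricter cell and choice limits, doublet scores, other scalings, and 2 limits added after seeing the data (at most 10000 UMIs, at least 1 receptor UMI). Results for 3 genes are not reported here.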

Additional observations from a re-analysis of the deposited data

How the results depend on the processing

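With 1 library per genotype, no replicate could be left out. No paired analysis was possible because each genotype has 1 library. Of 161 recomputed main values, 131 stayed within their counting interval or within 1.5 times the count, and 30 moved. Reversal was scored only for single genes and list medians, so no main value could be counted as reversed. The Ikzf1 log2 ratio, a main value, did change sign, from -0.55 to 0.14 in cells with 0 Epcam UMIs. Of 385 values of single genes, 267 stayed, 113 moved and 5 reversed. Causes were not tested beyond the smaller number of cells and genes that a stricter setting leaves.

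T-lineage cells with 0 Epcam UMIs were 1.02% and 0.938% of all kept cells, and their Ikzf1 ratio was 0.14. Over the 5696 genes of the main comparison, 10.8% were at least 2-fold higher and 9.01% lower in those cells. In all T-lineage cells the shares were 8.2% and 5.09%. Refiltered to at least 50 UMIs in the cells with 0 Epcam UMIs, 69 genes were higher and 131 lower, in place of 467 and 290. Fewer genes reached that limit. With that refilter the medians reversed to -0.18 for the Aire-stage list and 0.12 for the cortical list (0.53 and 1.07 over the genes of the main comparison), and Ccl20 to 4.94. T-lineage cells with at most 10000 UMIs, a limit added after seeing the data, were 1.20% and 1.29% of all kept cells. In that set Epcam was found in 26.2% and 31.1%, and 67 genes were higher and 54 lower. There, 5 cell cycle genes that reached 50 UMIs were lower and 7 mature genes higher. Ccl20 (3.56), Ccl6 (3.45) and Krtdap (0.07) reversed. Over the 5696 genes, 11.4% were at least 2-fold higher and 6.11% lower in the cells with at most 10000 UMIs. At least 10 choosing-gene UMIs per 10000 gave 1.40% in the fl/fl-labelled library, 238 genes higher and a Ccl20 ratio of 2.71. At least 4 choosing genes gave, in the fl/fl-labelled library, a share of 1.23% and Cd4 with Cd8 in 9.90% of cells, and 291 genes higher. The stricter cell filter gave Rag1 in 5.83% of the fl/fl-labelled library and Cd4 without Cd8 in 0% of the +/fl-labelled one. Thinning to 2000 UMIs gave Rag1 in 4.76% of the fl/fl-labelled library. Without thinning, Cd4 with Cd8 was 31.8% and 15.1%, Rag1 38.6% in the +/fl-labelled library, and in the fl/fl-labelled library Cd4 without Cd8 15.8% and Cd8 without Cd4 35.3%. At least 2 Epcam UMIs were found in 26.1% and 30.2%. Without a minimum of UMIs per gene, 3411 genes were higher and 1448 lower. The number of genes compared changed with these limits on cells and genes, so such counts are not shares. TMM factors reversed no list median. Shares in 88 and 139 cells carry wide intervals, which limits what these libraries can show.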
